A study of Mus musculus with 12 samples.

Results

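The genes described here encode the protein subunits of respiratory complexes II to V and cytochrome c that are made from nuclear DNA. They were chosen by symbol (Sdha to Sdhd, Cyc1, Cycs, and every symbol that starts with Uqcr, Cox4 to Cox8 or Atp5). No measured value entered this choice of symbols, but earlier results of these data were known when it was made. The array named 45 of them. Of these, 37 had a probe with a detection p-value under 0.05 on at least 3 of 12 arrays and were tested, among 9747 genes tested in all, and these 37 were detected on all 12 arrays. The tested genes comprise 3 of complex II, 7 of complex III, cytochrome c, 10 of complex IV and 16 of complex V.

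The arrays hold RNA of whole liver from male C57BL/6 mice of 8 weeks, in 4 groups of 3. The control group has no injection recorded, and whether it was given vehicle is not stated in the labels. The T3 group received L-T3 (liothyronine, the active thyroid hormone) for 3 days. The XCT790 group received XCT790, an inverse agonist of the estrogen-related receptor alpha (Esrra), by daily intraperitoneal injection for 4 days. The combined group received XCT790 for 4 days with L-T3 on the last 3. The labels give no dose and do not say that each array is a separate mouse, so p-values measure the spread between arrays, which may be technical.

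Complex II (succinate dehydrogenase) passes electrons from succinate to ubiquinone. Complex III (the cytochrome bc1 complex) passes them on to cytochrome c, complex IV (cytochrome c oxidase) from there to oxygen, and complex V (ATP synthase) uses the proton gradient built along the way to make ATP. Most of their subunits are nuclear genes, for which the transcription factors NRF1 and GABP, the estrogen-related receptors and their coactivators of the Ppargc1 family are known regulators, and thyroid hormone is known to raise respiration in liver.

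Hepatocyte markers were present, with 11 of 13 tested. Summed probe intensity per array ran from 14568457 to 22343383. The highest sum belonged to array 3 of the XCT790 group, while the other arrays of that group had 16400386 and 16471707, and this array is considered again beside the results it touches. All values below are log2 intensities after background correction and quantile normalization, and every change is a log2 difference between group means. A gene is called changed at a Benjamini-Hochberg adjusted p under 0.05 over all 9747 genes (limma, all 12 arrays in the fit). Quantile normalization sets aside differences in overall level between arrays. When arrays were scaled by their medians instead, the median change of all genes moved to -0.04 for T3 against control, -0.09 for XCT790 against control, -0.17 for T3 in mice given XCT790, -0.22 for XCT790 in mice given T3, -0.27 for both compounds against control and -0.13 for the interaction. These array medians were taken over all 45281 probes, of which 31.87% to 35.55% were detected on an array. Median scaling therefore follows the level of undetected probes, which limits what it says about the detected genes.

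RefSeq promoter windows on GRCm38.p6 were available for 29 of the 37 tested genes, in 32 windows of 250 bases before the annotated start. They were searched on both strands for 5 motifs: TCAAGGTCA, a consensus of the estrogen-related receptors; AGGTCA, the nuclear receptor half-site, which is contained in the former; GCATGCGC, the NRF1 core; TGACGTCA, the cAMP response element; and CCGGAAGT, an ETS site such as GABP binds. Of 32851 windows of all genes, 0.387% held TCAAGGTCA, against 1 of the 32 here (Atp5g3). AGGTCA was in 14.0% of all windows and in 5 of 32 (Atp5g3, Atp5l, Cox5b, Cox7b and Sdhb). GCATGCGC was in 2.26% of all windows and in 6 of 32 (Atp5g2, Atp5k, Atp5l, Cox6a1, Cycs and Sdhb). TGACGTCA was in 1.55% of all windows and in 1 of 32 (Cycs), and CCGGAAGT in 2.88% and in 3 of 32 (Atp5h, Uqcr11 and Uqcrh). These shares describe letters, not binding.

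Windows are shown for 3 genes: Cox7a1, whose T3 change was the largest; Cycs, called in the same comparisons; and Atp5g3, the holder of the estrogen-related receptor consensus, whose level moved least of complex V with T3. Each is written 5′ to 3′ on the strand of its gene, with motif matches in capitals.
Cox7a1 (chr7:30183921-30184170, plus strand, no match to any of the 5 motifs): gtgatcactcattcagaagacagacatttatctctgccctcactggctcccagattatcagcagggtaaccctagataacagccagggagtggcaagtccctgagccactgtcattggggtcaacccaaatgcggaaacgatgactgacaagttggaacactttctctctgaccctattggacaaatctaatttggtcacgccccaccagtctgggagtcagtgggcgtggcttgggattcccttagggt
Cycs (chr6:50566570-50566819, minus strand, TGACGTCA beginning 169 bases and GCATGCGC 60 bases before the start): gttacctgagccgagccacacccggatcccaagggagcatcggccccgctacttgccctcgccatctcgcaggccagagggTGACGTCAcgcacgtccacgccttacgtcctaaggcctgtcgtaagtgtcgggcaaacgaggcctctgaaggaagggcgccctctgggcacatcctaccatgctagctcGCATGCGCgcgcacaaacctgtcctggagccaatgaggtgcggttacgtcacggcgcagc
Atp5g3 (chr2:73911327-73911576, minus strand, TCAAGGTCA on the other strand, read here as TGACCTTGA, beginning 52 bases before the start): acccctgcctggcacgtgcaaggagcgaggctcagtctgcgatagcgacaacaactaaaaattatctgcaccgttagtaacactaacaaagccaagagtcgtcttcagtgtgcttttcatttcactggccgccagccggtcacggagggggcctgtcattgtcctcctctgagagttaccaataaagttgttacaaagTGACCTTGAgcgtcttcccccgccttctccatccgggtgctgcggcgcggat

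L-T3 for 3 days raised 3 of the 37 genes, Cox7a1, Cycs and Uqcrq, and lowered 0. Among all genes, 16.1% were called in this comparison, 7.24% higher and 8.91% lower. The 3 of 37 called higher are thus close to the share of all genes called higher. The 0 of 37 called lower stand beside the 8.91%. The direction was less even. Relative to control, 34 of the 37 lay above 0 (28 of 37 under median scaling), against 48.9% of all genes, and their median change was 0.16 against -0.01 for all genes. In 16 of the 37 every T3 array lay above every control array, which 15.7% of all genes did, and in 0 of the 37 every T3 array lay below, which 19.1% of all genes did. At an unadjusted p under 0.05, 10 of the 37 passed, against 29.9% of all genes. Most of these shifts were small: 6 of the 37 reached 0.3 in size. Without background correction limma called 5 of the 37 in this comparison, adding Atp5d and Cox6c. Calls among all genes then rose as well, from 1574 to 1841. The size also varied between arrays of a group, since the median difference of the 37 from the control mean was 0.20, 0.15 and 0.08 on T3 arrays 1 to 3. On combined arrays 1 to 3 this difference was 0.13, 0.08 and 0.05. It was -0.02, -0.06 and -0.05 on XCT790 arrays and -0.02, 0.02 and 0.02 on control arrays.

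**Figure D1:**
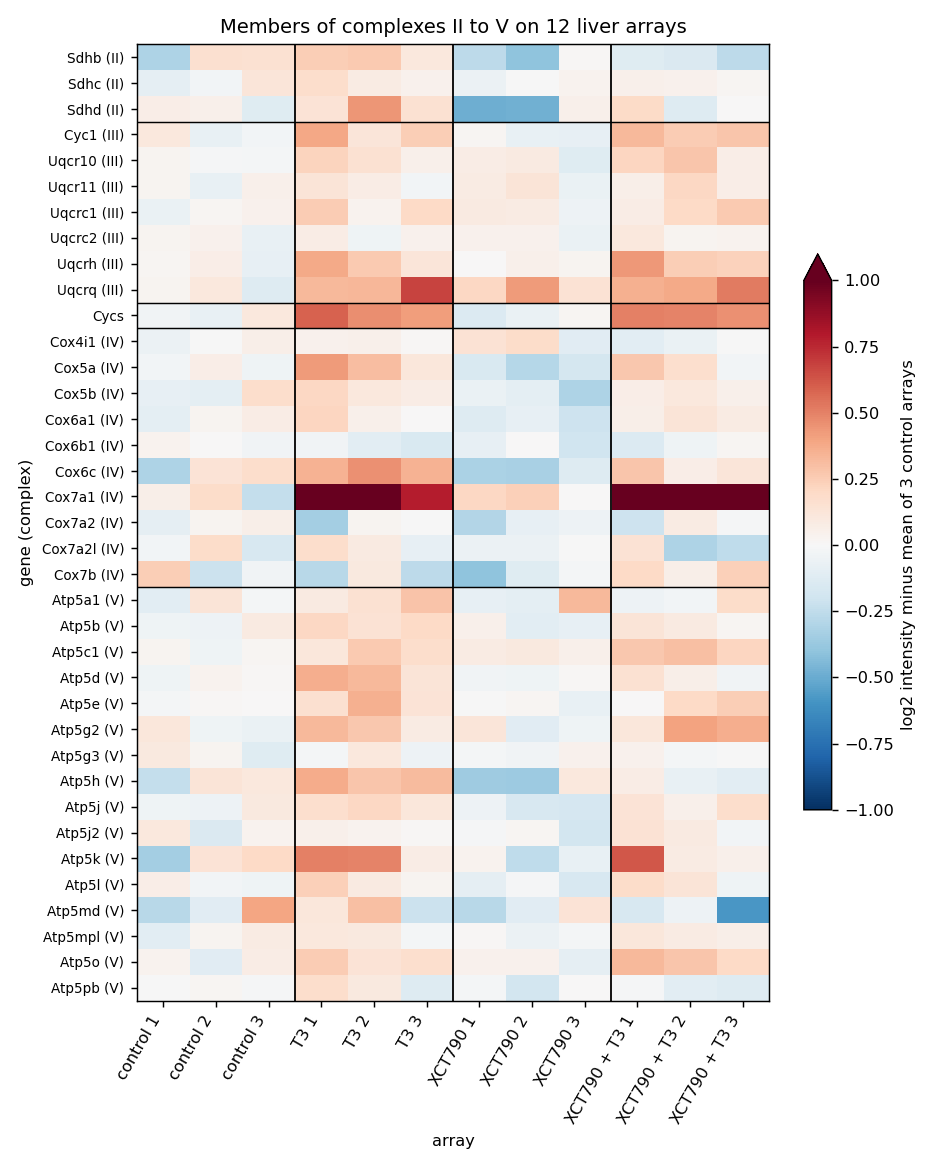
Log2 intensity of each of the 37 tested genes on each of 12 arrays, minus the mean of the 3 control arrays; columns are arrays by group, rows are genes by complex, red is above the control mean and blue below, and values over 1 take the darkest red. The row of Cox7a1 is darkest on the T3 and combined arrays, at 0.78 to 1.73 over the control mean, and Cycs is red on the same 6 arrays.

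Markers of other cell types moved with T3 as well. Of 8 tested Kupffer cell and macrophage markers, 5 rose with T3, where 7.24% of all genes were called higher. All 8 lay above 0 (48.9% of all genes), with a median change of 0.74. The summed intensity of the whole list of 10 was 2027 to 3371 on control arrays, 3944 to 4791 on T3 arrays, 1984 to 2406 on XCT790 arrays and 2928 to 4868 on combined arrays, and Cd5l was detected on no array. Summed endothelial markers were 5829 to 7292 on control and 7684 to 8410 on T3 arrays, with all 10 above 0, a median change of 0.21 and 0 of 10 called by limma at the adjusted threshold. Cholangiocyte markers summed to 368.1 to 544.2 on control, 266.4 to 313.7 on T3, 379.6 to 462.9 on XCT790 and 355.5 to 460.8 on combined arrays. Of the 5, Krt19, Epcam and Cftr were detected on no array, and 1 of the 2 tested, Sox9, fell with T3 (-0.98, adjusted p = 0.005327). Hepatocyte markers summed to 269100 to 283200 on control, 268100 to 275100 on T3, 261500 to 265900 on XCT790 and 267100 to 275100 on combined arrays. In whole liver, fewer cells of a type and less RNA per cell cannot be told apart, and the part of these markers in the changes of respiratory genes was not tested.

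XCT790 given alone for 4 days changed 0 of the 37 genes by limma, where 4.44% of all genes were called. At an unadjusted p under 0.05, 0 of the 37 passed as well, while 17.9% of all genes did. Changes ran from -0.31 (Sdhd) to 0.26 (Uqcrq), with 26 of 37 below 0 (51.6% of all genes) and a median of -0.04 against -0.01 for all genes. The 95% interval held 0 for all 37, and 28 of the 37 intervals lay wholly between -0.5 and 0.5. The lowest bound was -0.64 (Sdhd) and the highest 0.60 (Cox7a1), so a change larger than these was outside the interval of every one of the 37. In 1 gene, Cox5a, every XCT790 array lay below every control array (11.4% of all genes), and in 2, Uqcrq and Atp5c1, every array lay above (10.5%).

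When T3 was added to XCT790, limma called 3 of the 37 higher than with XCT790 alone, Cox7a1, Cycs and Cyc1, and 0 lower. Of all genes, 15.2% were called, 7.63% higher and 7.56% lower. The median change was 0.17 with 32 of 37 above 0 (49.3% of all genes), which turned to -0.04 with 15 of 37 above 0 under median scaling, where the median of all genes was itself -0.17 and the 37 stood 0.13 above it. In 14 of 37 every combined array lay above every XCT790 array, against 16.2% of all genes. Without background correction 8 of the 37 were called, adding Atp5j, Atp5o, Cox5a, Cox6c and Uqcrh. Calls among all genes then went from 1481 to 1674.

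XCT790 given to T3-treated mice changed 0 of the 37 by limma against T3 alone, in a comparison where 0.0923% of all genes were called. At an unadjusted p under 0.05, 3 passed (Sdhb, Atp5h and Atp5d, all lower), against 12.7% of all genes. In 5 genes every combined array lay below every T3 array (Sdhb, Cox4i1, Cox6c, Atp5b and Atp5h), which 8.85% of all genes did. The median of the 37 was -0.03, with 22 below 0 (47.4% of all genes).

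Both compounds together raised 4 of the 37 over control (Cox7a1, Cycs, Uqcrq and Atp5c1) and lowered 0, where 18.7% of all genes were called, 8.97% higher and 9.77% lower. The median of the 37 was 0.09 with 29 above 0 (49.1% of all genes), but -0.16 with 7 above 0 under median scaling, where all genes had a median of -0.27. Every combined array lay above every control array in 11 of 37, against 16.9% of all genes. The interaction, which asks whether the T3 change differed with XCT790, called 0 of 37 by limma (0.462% of all genes). At an unadjusted p under 0.05, 1 passed, Cox7b, against 12.1% of all genes.

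**Figure D2:**
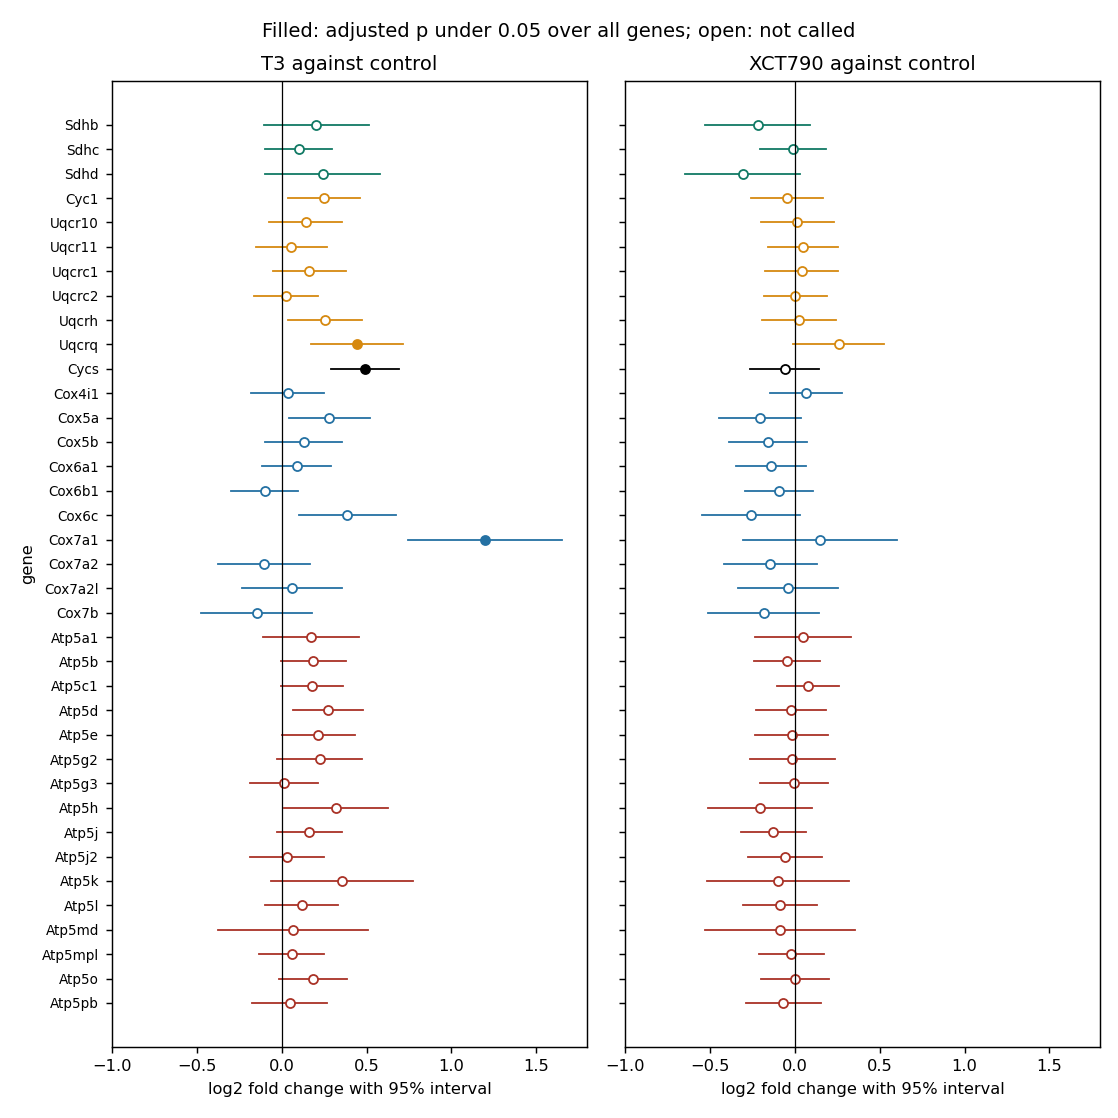
Log2 fold change with its 95% interval for each of the 37 genes, in T3 against control (left) and XCT790 against control (right), coloured by complex; filled points are called at an adjusted p under 0.05 over all genes. The 3 filled points are Cox7a1, Cycs and Uqcrq on the left, and all 37 intervals on the right hold 0.

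Complex II did not reach the threshold in any of the 6 comparisons. Its catalytic flavoprotein Sdha had 1 probe, detected on 0 arrays with a highest intensity of 89.6, so that subunit has no measured level here. Sdhb, the iron-sulfur subunit, read 10.56, 11.03 and 11.03 on control arrays, 11.12, 11.13 and 10.98 with T3, 10.61, 10.47 and 10.88 with XCT790, and 10.75, 10.73 and 10.61 with both. The 3 combined arrays lay below the 3 T3 arrays, a change of -0.38 (SE 0.14, adjusted p = 0.2963 by limma), whereas control array 1 lay low and overlapped the XCT790 arrays. Sdhd, a membrane anchor that helps bind ubiquinone, read 8.72, 8.70 and 8.53 on control, 8.79, 9.10 and 8.80 on T3, 8.17, 8.17 and 8.70 on XCT790, and 8.85, 8.52 and 8.66 on combined arrays. XCT790 array 3, the array with the highest summed intensity, read at the level of controls, and the other 2 read below every other array. The Sdhd change with XCT790 was -0.31 (SE 0.16, limma adjusted p = 0.3344), and -0.48 (SE 0.13, adjusted p = 0.0741) without that array. Leaving it out also brought the T3 change in XCT790-treated mice from 0.33 (adjusted p = 0.1876) to 0.51 (adjusted p = 0.03117), past the threshold. Sdhc, the other anchor, stayed between 11.99 and 12.26 on all 12 arrays, with changes of 0.10 for T3 and -0.01 for XCT790. All 3 genes lay below 0 with XCT790 in both backgrounds, with medians of -0.22 without T3 and -0.22 with it. Relative to the median of all genes these were -0.21 and -0.23, and -0.18 and -0.27 under median scaling. The median without T3 is the value of the chosen Sdhb probe. Another Sdhb probe, nearly as bright (mean 10.46 against 10.82), gave -0.09 without T3 and -0.30 with it. A dim Sdhb probe gave -0.06 and -0.16. With XCT790 alone, 8 of 10 complex IV genes (median -0.14) and 13 of 16 of complex V (median -0.03) lay below 0 too. In complex III 1 of 7 did, and of all genes 51.6%. In T3-treated mice the counts were 6 of 10, 11 of 16 and 1 of 7, against 47.4% of all genes.

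In complex III all 7 genes lay above 0 with T3 (6 of 7 under median scaling), against 48.9% of all genes. Their changes ran from 0.02 for the core protein Uqcrc2 to 0.44 for Uqcrq, with a median of 0.16. Uqcrq encodes a small subunit of the complex, known as a ubiquinone-binding protein. It read 7.54, 7.62 and 7.38 on control arrays, 7.84, 7.85 and 8.19 with T3, 7.72, 7.94 and 7.66 with XCT790, and 7.87, 7.89 and 8.03 with both. Control arrays were the lowest 3 of the 12. T3 raised it by 0.44 (SE 0.12, adjusted p = 0.02894), both compounds by 0.42 (adjusted p = 0.03588), and the change with XCT790 alone was 0.26 (SE 0.12, adjusted p = 0.3003). The T3 call was lost without control array 1, control array 3 or T3 array 3 (adjusted p = 0.06186, 0.09891 and 0.1148). The call with both compounds was lost without any 1 array of the control or combined group (adjusted p = 0.0513 to 0.1178) and with the replicate block (0.05494), and both calls were lost under median scaling (0.1708 and 0.7403). The platform assigns this Uqcrq probe to a cDNA clone record, and the other Uqcrq probe, assigned to the RefSeq transcript, was detected on 0 arrays, so whether the change is that of the coding transcript was not tested.

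Cyc1, cytochrome c1, the heme protein that hands electrons to cytochrome c, read 11.65, 11.48 and 11.52 on control, 11.93, 11.67 and 11.79 on T3, 11.56, 11.47 and 11.47 on XCT790, and 11.88, 11.80 and 11.82 on combined arrays. All 6 arrays of T3-treated mice lay above all 6 without T3, since the lowest of the former was 11.67 and the highest of the latter 11.65. Its change passed the threshold only in mice given XCT790 (0.33, SE 0.10, adjusted p = 0.03739). It was 0.25 (SE 0.10, adjusted p = 0.1037) for T3 against control, with an interaction of 0.08 (SE 0.14, adjusted p = 0.8742). That call was lost without any 1 array of the XCT790 or combined group or T3 array 3, at adjusted p of 0.05036 to 0.1028. Uqcrc2 ranged from 12.74 to 12.92 over the 12 arrays, and its control arrays (12.85, 12.86 and 12.74) and T3 arrays (12.89, 12.78 and 12.86) overlap. Uqcrh, the hinge protein beside cytochrome c1, had changes of 0.26 with T3 and 0.28 with T3 in XCT790-treated mice, at adjusted p of 0.1063 and 0.08831. With XCT790, 6 of the 7 lay above 0 (48.4% of all genes). Under median scaling 1 of 7 did, where the median of all genes was -0.09. Relative to the median of all genes, the complex III median was 0.04, and 0.07 under median scaling. The Rieske iron-sulfur subunit Uqcrfs1 was not tested, since its 2 probes were detected on at most 1 array.

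Cycs, the soluble electron carrier cytochrome c, rose with T3 with little spread. It read 11.76, 11.73 and 11.90 on control arrays, 12.39, 12.27 and 12.22 with T3, 11.66, 11.73 and 11.82 with XCT790, and 12.30, 12.29 and 12.25 with both. The 6 arrays with T3 lay above the 6 without, and the XCT790 and control arrays overlapped. The rise was 0.49 (SE 0.09, a fold of 1.41, adjusted p = 0.0034) against control and 0.54 (SE 0.09, a fold of 1.46, adjusted p = 0.002052) in mice given XCT790. XCT790 changed it by -0.06 (95% interval -0.26 to 0.14) without T3 and by -0.01 (-0.21 to 0.19) with T3. Its other 2 kept probes, both dim, gave 0.40 and 0.41 for T3 and 0.48 and 0.46 for T3 with XCT790. For XCT790 these 2 differed, at -0.38 and 0.01 without T3 and -0.30 and 0.07 with T3. The mouse genome holds many processed copies of Cycs, and whether the probes also bind RNA of those was not tested. Over 20 alternative settings the T3 call held in 19, the exception being median scaling (0.39, adjusted p = 0.1819).

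**Figure D3:**
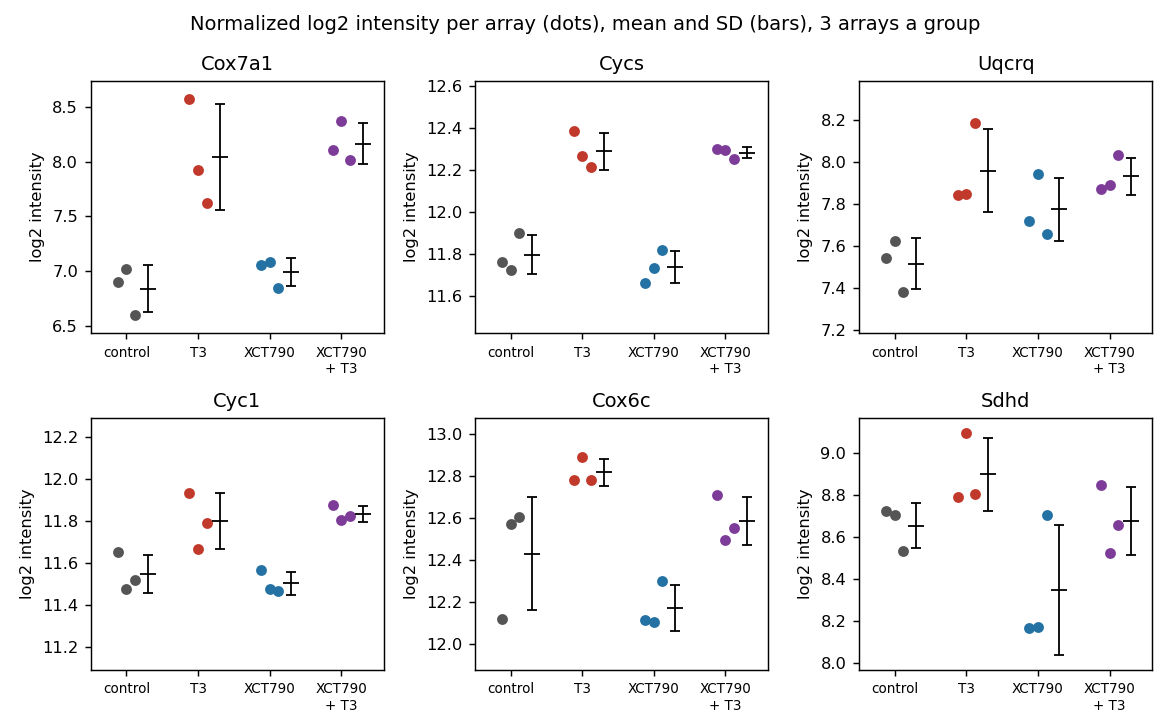
Normalized log2 intensity per array (dots) with group mean and SD (bars) for 6 genes in the 4 groups; vertical ranges differ, and that of Cox7a1 is wider. Cox7a1, Cycs and Cyc1 lie higher on all 6 arrays with T3 than on all 6 without, Uqcrq has its 3 lowest values on the control arrays, and XCT790 array 3 lies apart for Sdhd.

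Complex IV held the largest change, and also the 3 genes that lay below 0 with T3 (Cox7b, Cox7a2 and Cox6b1). Cox7a1 is the heart and skeletal muscle form of subunit 7a, whose liver form is Cox7a2. It read 6.90, 7.02 and 6.601 on control arrays, 8.57, 7.93 and 7.62 with T3, 7.05, 7.08 and 6.84 with XCT790, and 8.11, 8.37 and 8.01 with both. Arrays with T3 all lay above those without, and the T3 group had the widest spread (SD 0.48). T3 raised it by 1.20 (SE 0.21, a fold of 2.29, adjusted p = 0.002078) against control and by 1.17 (SE 0.21, a fold of 2.25, adjusted p = 0.002815) in mice given XCT790, and both compounds by 1.32 (SE 0.21, adjusted p = 0.0009869). The call held in all 20 alternative settings in each of these 3 comparisons. XCT790 changed it by 0.15 (95% interval -0.30 to 0.60) and, with T3, by 0.12 (-0.33 to 0.58). Of 13 striated muscle markers, 8, including Ckm and Tnnt3, were detected on no array, 2 were tested with 0 called, and the list summed to 352 to 481.5 on control and 373.2 to 413.1 on T3 arrays. Of 7 adipose markers, 5, including Ucp1, were detected on no array.

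For the liver form Cox7a2 no change was called. It read 8.73, 8.85 and 8.88 on control arrays, 8.48, 8.85 and 8.82 with T3, 8.53, 8.74 and 8.77 with XCT790, and 8.62, 8.90 and 8.81 with both, groups that all overlap. Its T3 change was -0.10 (95% interval -0.38 to 0.17). Cox7a2l, which encodes a related protein, read 9.84, 10.05 and 9.71 on control and 10.04, 9.96 and 9.78 on T3 arrays. It read 9.80, 9.81 and 9.86 with XCT790 and 10.01, 9.56 and 9.61 with both, again overlapping. Other muscle or tissue forms (Cox4i2, Cox6a2, Cox6b2, Cox7b2, Cox8b and Cox8c) were detected on at most 1 array, with a highest intensity between 80.2 and 103, and were not tested. Of the forms common in liver, Cox4i1 stayed between 13.71 and 14.01 on all 12 arrays, Cox6a1 between 12.93 and 13.35, and Cox6b1 between 13.60 and 13.84. Their T3 changes were 0.04, 0.09 and -0.10, with 95% intervals that hold 0. A further bright probe gave a T3 change of 0.23 for Cox6a1, and another gave 0.04 for Cox6b1.

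Cox6c, a small subunit of complex IV, read 12.12, 12.57 and 12.60 on control, 12.78, 12.89 and 12.78 on T3, 12.11, 12.11 and 12.30 on XCT790, and 12.71, 12.49 and 12.55 on combined arrays. The 3 T3 arrays were the highest of the 12, and control array 1 sat with the XCT790 arrays. Its T3 changes, 0.39 (SE 0.13, adjusted p = 0.06667) and 0.41 in XCT790-treated mice (SE 0.13, adjusted p = 0.05401), missed the threshold. They passed it without background correction (adjusted p = 0.02963 and 0.02292), and without control array 1 the former fell to 0.23 (adjusted p = 0.2126) while the latter stayed at 0.41 with an adjusted p of 0.0171. Its XCT790 change was -0.26 (SE 0.13, adjusted p = 0.3363), and -0.41 (adjusted p = 0.07386) without control array 1. Cox7b, another small subunit, had the lowest T3 change of the 37 and the largest interaction. It read 7.32, 6.86 and 7.04 on control, 6.79, 7.17 and 6.81 on T3, 6.67, 6.95 and 7.05 on XCT790, and 7.27, 7.13 and 7.31 on combined arrays. T3 changed it by -0.15 without and 0.35 with XCT790, an interaction of 0.50 (SE 0.21, limma adjusted p = 0.3728) that did not pass. Cox5a, next to the catalytic core, had T3 changes of 0.28 and 0.34 (adjusted p = 0.1068 and 0.05678).

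All 16 genes of complex V lay above 0 with T3 (12 of 16 under median scaling), against 48.9% of all genes. Yet limma called 0 of the 16 (16.1% of all genes), and 3 passed an unadjusted p under 0.05 (29.9% of all genes). Changes ran from 0.01 (Atp5g3) to 0.36 (Atp5k), with a median of 0.18. The catalytic subunit Atp5b had 0.19 and its partner Atp5a1 0.17, each with an interval that holds 0. Atp5c1, the rotating gamma subunit, read 12.69, 12.62 and 12.69 on control, 12.78, 12.92 and 12.84 on T3, 12.75, 12.76 and 12.71 on XCT790, and 12.93, 12.96 and 12.88 on combined arrays. Each of the 3 treated groups lay above the controls. With both compounds the change passed the threshold, at 0.26 (SE 0.08, a fold of 1.20, adjusted p = 0.04906). That call was lost without any 1 of the 12 arrays (adjusted p = 0.05315 to 0.1398), and under median scaling the change was -0.04. Atp5d, the delta subunit of the rotor, had 0.27 with T3 (SE 0.09, adjusted p = 0.07342) and 0.08 with T3 in XCT790-treated mice, an interaction of -0.19 (SE 0.13, adjusted p = 0.6507).

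Atp5h, the d subunit of the outer stalk, read 11.23, 11.60 and 11.57 on control, 11.83, 11.74 and 11.78 on T3, 11.11, 11.11 and 11.57 on XCT790, and 11.54, 11.39 and 11.36 on combined arrays. As for Sdhd, XCT790 array 3 sat with the controls while the other 2 of its group were the lowest of the 12, and control array 1 was low. The 3 T3 arrays lay above all others. Its change with XCT790 was -0.20 (adjusted p = 0.5113), and -0.36 (SE 0.14, adjusted p = 0.3194) in T3-treated mice. Without XCT790 array 3 the former was -0.36 (adjusted p = 0.1451). Atp5g3, a gene for the c ring through which protons pass, ranged from 14.67 to 14.90 on all arrays, with changes of 0.01 for T3 and -0.01 for XCT790, with 95% intervals of -0.19 to 0.21 and -0.21 to 0.19. Its promoter window is the one above that holds the estrogen-related receptor consensus. Atp5k, a small subunit of the membrane part, read 6.05, 6.53 and 6.59 on control, 6.89, 6.89 and 6.46 on T3, 6.42, 6.14 and 6.32 on XCT790, and 7.01, 6.47 and 6.44 on combined arrays, with overlap of control and T3 arrays and a T3 change of 0.36 (SE 0.19, adjusted p = 0.2397). Leaving out 1 array gave 0.19 (without control array 1) to 0.50 (without T3 array 3). As for Uqcrq, this probe is assigned to a cDNA clone record and the probe assigned to the RefSeq transcript was detected on 0 arrays.

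Further complex V genes had T3 changes below the threshold, and their arrays differed in how far the groups overlapped. Atp5o, the stalk protein that confers oligomycin sensitivity, read 13.42, 13.27 and 13.46 on control, 13.64, 13.51 and 13.55 on T3, 13.42, 13.42 and 13.29 on XCT790, and 13.71, 13.66 and 13.58 on combined arrays. All 6 arrays with T3 lay above the 6 without, and the T3 changes were 0.19 (SE 0.09, adjusted p = 0.2043) and, in XCT790-treated mice, 0.27 (SE 0.09, adjusted p = 0.07485). Atp5j, coupling factor 6, read 13.19, 13.18 and 13.33 on control, 13.41, 13.44 and 13.35 on T3, 13.18, 13.08 and 13.07 on XCT790, and 13.37, 13.29 and 13.41 on combined arrays. Its T3 arrays lay above its control arrays and its combined arrays above its XCT790 arrays, with changes of 0.16 and 0.25 (adjusted p = 0.2416 and 0.08235). Atp5e, the epsilon subunit of the rotor, stayed between 8.18 and 8.20 on control arrays, read 8.35, 8.54 and 8.33 with T3, and had a T3 change of 0.22 (SE 0.10, adjusted p = 0.1621). Atp5g2, another gene for the c ring, read 10.21, 10.06 and 10.03 on control and 10.42, 10.37 and 10.18 on T3 arrays, which overlap. Atp5md, a dim probe, had the widest intervals of complex V, such as -0.53 to 0.36 for XCT790 against control.

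The T3 comparisons without and with XCT790 share no array, and their changes may be set side by side. Of the 37 genes, 29 lay above 0 in both and 0 below 0 in both, against 33.3% of all genes above and 35% below 0 in both. Across the 37 genes the changes correlated with a Pearson r of 0.80 and a Spearman rho of 0.61, a description over genes of the same arrays, which are not independent. Much of r came from Cox7a1: r was 0.55 for the 36 others, and 0.46 without Cycs as well. Over all 9747 genes r was 0.69. Cox7a1 and Cycs were called higher in both, and 3.89% of all genes were. The XCT790 comparisons without and with T3, which also share no array, had r of 0.40 over the 37 genes and 0.22 over all genes, with 19 of 37 below 0 in both (28.7% of all genes).

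**Figure D4:**
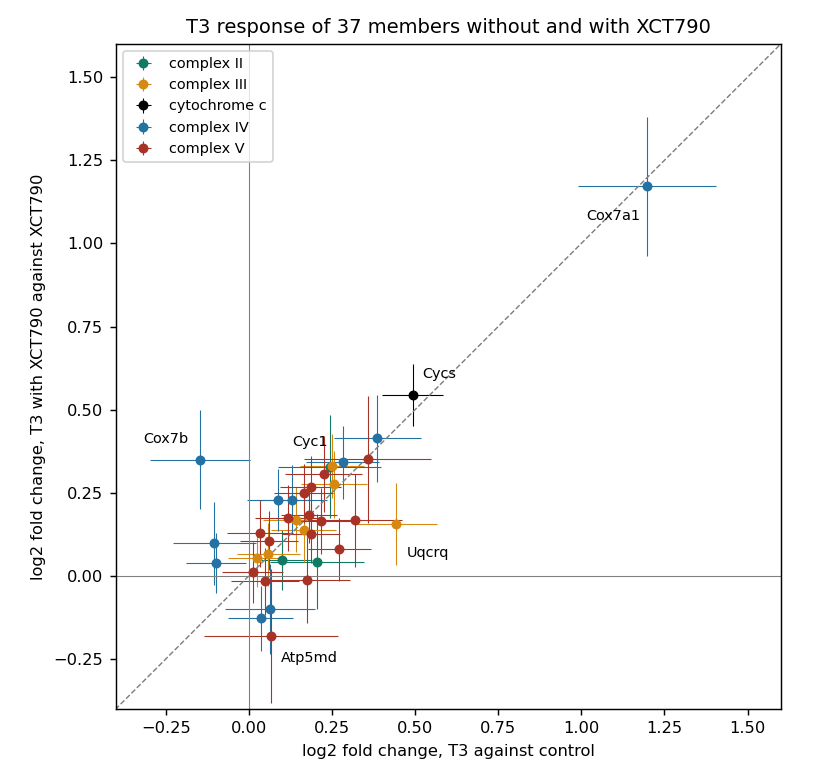
Log2 fold change of T3 against control (horizontal) and of T3 with XCT790 against XCT790 alone (vertical) for the 37 genes, with bars of 1 SE each way, coloured by complex; the dashed line marks equal change. Cox7a1 (1.20 and 1.17) and Cycs (0.49 and 0.54) lie near the line apart from the rest, and Cox7b (-0.15 and 0.35) lies farthest from it.

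The size of change was also set beside probe brightness. The 14 genes whose probe averaged over 13 had T3 changes between -0.10 and 0.26 with 0 called, and the other 23 had -0.15 to 1.20 with 3 called. The median absolute change was 0.11 for the former and 0.22 for the latter with T3 alone, but 0.15 and 0.17 with T3 in XCT790-treated mice. Where a gene had more than 1 kept probe, the brightest stood for it. Of 17 further kept probes of 12 genes, 9 had a T3 change above that of the chosen probe, such as 0.46 against 0.17 for Atp5a1, 0.34 against 0.13 for Cox5b and 0.28 against 0.12 for Atp5l, and 8 had one below it, such as 0.06 against 0.14 for Uqcr10 and 0.40 and 0.41 against 0.49 for Cycs. The sign turned for a further probe of Atp5j (-0.01 against 0.16), of Cox6b1 (0.04 against -0.10) and of Atp5pb (-0.04 against 0.05). Of the 17, 14 had the sign of the chosen probe for T3 against control and 9 for XCT790 against control. The part of brightness in the size of the changes was not tested.

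Related genes were followed in lists. Of 32 tested assembly factors of complexes II to V, T3 raised 5 and lowered 2, with a median of 0.11, where 7.24% of all genes were called higher and 8.91% lower. Cox10, which takes part in making the heme a of complex IV, rose most. It went from 9.97, 9.96 and 10.13 on control arrays to 10.97, 10.83 and 10.79 on T3 arrays, with no overlap (0.84, SE 0.12, adjusted p = 0.0004922). In XCT790-treated mice it rose by 0.79 (adjusted p = 0.0008764). Also raised were Bcs1l, which inserts the Rieske protein of complex III (0.36, adjusted p = 0.03604), Uqcc1, which helps translate cytochrome b (0.40, adjusted p = 0.00843), and the complex IV factors Coa5 (0.38, adjusted p = 0.01717) and Coa6 (0.43, adjusted p = 0.02554). Those lowered were Cox19 (-0.65, adjusted p = 0.003956) and Cmc1 (-0.36, adjusted p = 0.01455), both also complex IV factors. The Bcs1l call was lost without control array 1 or 2, any 1 T3 array or XCT790 array 1 (adjusted p = 0.0511 to 0.1357). That of Coa6 was lost without control array 1 or 2 or T3 array 2 or 3 (to 0.09382), that of Coa5 without control array 3 or T3 array 2 (0.05849 and 0.06847), and that of Cmc1 without control array 1 or T3 array 2 (0.05391 and 0.05447). Under median scaling Cox10 and Cox19 alone of the 7 were called. With T3 in XCT790-treated mice, 3 of 32 rose and 1 fell, with both compounds 4 rose and 1 fell (15.2% and 18.7% of all genes were called), and in the XCT790 comparisons 0 were called by limma. Leaving out each of the 12 arrays kept the calls of Cox10 in both and of Uqcc1 with both compounds, and ended each of the others in 6 to 12 of the 12 fits. Of 6 tested subunits encoded in mitochondrial DNA, ND5 of complex I rose with T3 (0.70, SE 0.20, adjusted p = 0.03537), and 0 were called in the other comparisons. Omitting control array 1, control array 2 or any 1 T3 array ended the ND5 call (to 0.1281), as did median scaling (0.07264).

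Ubiquinone also takes up electrons by other routes, and of 8 tested genes for these T3 raised 2 and lowered 1 (7.24% and 8.91% of all genes). Gpd2, the mitochondrial glycerol-3-phosphate dehydrogenase and a known thyroid hormone target, went from 9.61, 9.67 and 9.91 on control arrays to 10.99, 11.07 and 10.91 on T3 arrays (1.26, SE 0.10, adjusted p = 5.703e-06), and by 1.36 in XCT790-treated mice. Prodh, proline dehydrogenase, rose by 0.87 with T3 (adjusted p = 8.319e-05) and by 0.50 with XCT790 alone (adjusted p = 0.01191, and 0.2441 under median scaling). Chdh, choline dehydrogenase, fell by 1.32 with T3 (adjusted p = 3.984e-05). Limma called 0 of 5 tested genes of adenine nucleotide and phosphate transport, and 0 of 3 further genes tied to ATP synthase, in all 6 comparisons.

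Among 14 tested regulators of respiratory genes, T3 raised 2, against 7.24% of all genes. Esrra, the receptor that XCT790 binds, read 9.48, 9.37 and 9.28 on control, 9.91, 10.07 and 9.88 on T3, 9.95, 10.14 and 9.75 on XCT790, and 10.00, 9.90 and 9.92 on combined arrays. The controls lay below all 9 other arrays. It rose with T3 (0.58, SE 0.11, adjusted p = 0.00442) and with XCT790 (0.57, SE 0.11, adjusted p = 0.01481), the only one of the 14 called with XCT790 alone, and its T3 change in XCT790-treated mice was -0.01. Omitting XCT790 array 1, XCT790 array 2, control array 2 or control array 3 ended the call with XCT790 (adjusted p = 0.05478 to 0.06187), and both calls were lost under median scaling (0.05012 with T3 and 0.1149 with XCT790). Esrrg, a related receptor, rose by 1.72 with T3 (adjusted p = 0.0002524) and by 1.18 in XCT790-treated mice (adjusted p = 0.003717). Both compounds together raised 4 of 14, where 8.97% of all genes were called higher. The 4 were Esrra, Esrrg and the coactivators Ppargc1a (0.74, adjusted p = 0.02415) and Pprc1 (0.71, adjusted p = 0.02158). The Ppargc1a call was lost without control array 2 or 3 or combined array 1 or 2 (to 0.08821), and that of Pprc1 without control array 1 or 2 or combined array 3 (to 0.08264). The probes of the thyroid hormone receptors Thra and Thrb were detected on 0 arrays.

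Over the 12 arrays the genes outside the group whose level ran most like Cox7a1 were Rilp (Pearson r 0.957), Cyp2a12 (0.957), Gch1 (0.956), Gdf10 (0.950) and Pon2 (0.946). Those most like Cycs were Ndufa5, a subunit of complex I (0.983), Shmt1 (0.981), Gpd2 (0.980), Nde1 (0.980) and Stat5a (0.979). For Uqcrq the highest were Rrp12 (0.935), Gm26588 (0.898), Myo18a (0.897), Ddx24 (0.895) and Egf (0.880). These are the highest of all tested genes and so describe likeness over 12 arrays in 4 groups, with no test.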

How the data were processed

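Liver RNA of 12 samples was measured on Illumina mouse bead arrays, 3 in each of 4 groups taken from the sample titles. Each array has a deposited non-normalized intensity and a deposited detection p-value for 45281 probes, per the file headers. They also deposited a matrix of intensity that the values show to be linear and quantile-normalized, used here as an alternative. The submitters' processing notes name Partek 6.6 but no step.

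Background was corrected with limma's normexp model from the detection p-values (offset 16), values were put on the log2 scale and quantile-normalized (limma 3.58.1, R 4.3.3). Probes with a deposited detection p-value under 0.05 on at least 3 arrays were kept (17218). Platform annotation gave 1 symbol to 34885 probes, several to 18 and none to 10378. The brightest kept probe stood for each of 9747 genes. A linear model over 12 arrays gave 6 two-sided contrasts, moderated by eBayes and adjusted by Benjamini-Hochberg over all genes. The fit was tested on simulated data. With 3 arrays a group the number of arrays limits precision.

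The genes and lists were chosen with earlier results of these data known. Named with every value, or for narrow ranges with their range, are genes called in any contrast, the largest rise and fall per complex with T3 and with XCT790, tissue forms of complex IV and complex II. Other genes were named after their values were seen. The main fit did not pair arrays by replicate number. Same-numbered arrays of different groups had correlations of deviations from -0.131 to 0.131, with 2 of 18 over 0.1. For arrays of other numbers these ran from -0.185 to 0.229, with 4 of 36 over 0.1. Alternatives were leaving out the background correction, scaling by medians, using the deposited matrix, dropping or tightening the filter, the mean over probes, a replicate block, fits of the compared groups alone, and leaving out each array. Sequences are from RefSeq on GRCm38.p6.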

Additional observations from a re-analysis of the deposited data

How the results depend on the processing

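With 37 genes tested in 20 alternatives for each comparison (19 for the interaction), 0 were called in XCT790 against control, XCT790 in mice given T3 and the interaction under any of them. In the T3 comparisons the count of called genes (3 for T3 against control, 3 for T3 in mice given XCT790 and 4 for both compounds against control) became 5, 8 and 7 without background correction, 5, 8 and 7 with the deposited matrix, 5, 7 and 7 with the strict filter, and 1, 1 and 1 with median scaling, where Cox7a1 alone remained. The mean over probes gave 5 for T3 in mice given XCT790, and the replicate block gave 2 for both compounds. Among all genes, the main fit called 1574, 1481 and 1826 in the 3 T3 comparisons. Counts among all genes were 1841, 1674 and 2043 without background correction and 1843, 1676 and 2041 with the deposited matrix. The strict filter, which changes the genes tested, gave 1793, 1625 and 1932, and median scaling 942, 1254 and 2377. Calls among all genes thus also rose without background correction, with the deposited matrix and with the strict filter. Median changes of the 37 under median scaling were 0.0755 for T3 against control, -0.0938 for XCT790 against control, -0.0428 for T3 in mice given XCT790, -0.21 for XCT790 in mice given T3, -0.16 for both compounds and -0.10 for the interaction. Relative to the median of all genes these were 0.12, -0.00181, 0.13, 0.00619, 0.10 and 0.03. Without a filter the median for T3 in mice given XCT790 was 0.13 over 45 genes. Leaving out each array gave 2 to 3, 2 to 4 and 2 to 3 called genes in the 3 T3 comparisons; the count for both compounds fell from 4 to 2 without any array of the control or combined group. The medians then ran from 0.0717 to 0.127 for both compounds, -0.0177 to 0.0537 for the interaction and -0.0651 to -0.00482 for XCT790 in mice given T3. Cycs lost its call under median scaling in all 3 T3 comparisons (adjusted p = 0.1819, 0.264 and 0.4709) and for both compounds also with the mean over probes (0.06736). Under median scaling Atp5c1 (-0.0409) and Coa5 (-0.00829) turned below control with both compounds. The replicate block ended the calls of Uqcrq (adjusted p = 0.05494) and Atp5c1 (0.07258) for both compounds. The causes were not tested. With 3 arrays a group the SEs among the 37 genes were 0.08 to 0.21, which limits the size of change that can be called, and the number of arrays limits the precision.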
